A study of Mus musculus with 8 samples.

Results

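Cytochrome P450 genes encode haem enzymes that insert an oxygen atom into small molecules, and the present account follows every probe on the array whose gene name has the form of a P450 gene (Cyp, a family number, a subfamily letter and a member number). The rule took 119 probes of 96 genes among 55681 non-control probes, and left out Cyp51, whose name lacks a subfamily letter. Of the 96 genes, 73 had a probe that both arrays of 1 or more groups read well above background, and these were tested among 20698 named genes. The samples were total RNA from 2 cm fragments of intestine of 129SV mouse pups at 3 days of age, read on 8 single-colour arrays. Pups lacking claudin-7 (KO), a membrane protein of epithelial junctions, were compared with wild-type pups (WT), and no pup was treated. The 4 groups were KO small intestine, WT small intestine, KO large intestine and WT large intestine, with 2 arrays each, numbered 2 and 3. The labels give neither the part of the gene that was removed nor the place along the gut where a fragment was cut, and they do not say which samples came from the same pup. The 8 arrays lay on 1 slide, where the slide row followed the replicate number, and slide column and group cannot be told apart.

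P450 enzymes of families 1 to 3 oxidise drugs, plant compounds and many steroids and lipids, and are best known from liver and from the epithelium of the small intestine. Those of family 4 and of subfamily 2j hydroxylate or epoxidise fatty acids and arachidonic acid, while other families build steroid hormones and bile acids or activate and break down vitamin D and retinoic acid. Most microsomal members take electrons from cytochrome P450 reductase (Por), and many are switched on by nuclear receptors such as PXR (Nr1i2), CAR (Nr1i3), FXR (Nr1h4) and HNF4A, or by the aryl hydrocarbon receptor (Ahr).

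Signals are given as scaled signal, the background-subtracted intensity of a probe relative to a 75th percentile of 1000 on its own array. Each difference is a log2 estimate ± its standard error from limma with n = 2 arrays per group, and a gene passed at a Benjamini-Hochberg adjusted p under 0.05 over all genes tested. The labels number the replicates without saying whether they are separate pups, and the p-values measure only the spread between these samples. In whole fragments, fewer cells of a type and less RNA per cell cannot be told apart. The number of arrays limits the precision, and the median standard error within a segment was 0.28 over all genes. Cldn7 itself read 4618 and 1921 in KO small intestine against 59383 and 61051 in WT small intestine, and 4216 and 4454 in KO large intestine against 51986 and 47303 in WT large intestine. It fell by 4.34 ± 0.39 and 3.52 ± 0.39 (adjusted p = 0.00794 and 0.0341), and whether its probe lies in the removed part is not known.

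Because P450 genes lie in arrays of near-identical copies, the 60-base probes behind the main results are shown, as designed and in the 5′ to 3′ direction. The first 3 read neighbouring Cyp2j genes on chromosome 4, at chr4:96192532-96192591 for Cyp2j6 and chr4:96111331-96111390 for Cyp2j8, with Cyp2j13 crossing an intron within chr4:95712305-95723288 (mouse build mm9, minus strand).
Cyp2j6: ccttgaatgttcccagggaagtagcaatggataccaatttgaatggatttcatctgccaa
Cyp2j8: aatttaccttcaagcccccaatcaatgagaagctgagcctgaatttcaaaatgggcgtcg
Cyp2j13: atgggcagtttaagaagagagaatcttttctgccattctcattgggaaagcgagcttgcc
The next pair read Cyp2w1 at chr5:139832563-139832622 (plus strand) and Cyp7b1 at chr3:17972286-17972345 (minus strand).
Cyp2w1: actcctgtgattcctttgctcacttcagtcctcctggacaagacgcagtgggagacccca
Cyp7b1: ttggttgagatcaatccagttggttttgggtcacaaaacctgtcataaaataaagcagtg
The last 3 read the Cyp2d genes that marked the large intestine, at chr15:82446431-82446490 (minus strand), chr15:82233276-82233335 (minus strand) and chr15:82285582-82285641 (plus strand) in the order printed.
Cyp2d34: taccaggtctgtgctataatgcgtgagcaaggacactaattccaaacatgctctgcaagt
Cyp2d10: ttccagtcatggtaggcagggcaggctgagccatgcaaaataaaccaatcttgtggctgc
Cyp2d9: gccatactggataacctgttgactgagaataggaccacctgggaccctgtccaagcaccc
Set against each other without gaps, the probes of the 73 tested genes were mostly distinct. Only the pair for Cyp2a21-ps and Cyp2a4 (52 of 60 bases) and the pair for Cyp4a10 and Cyp4a31 (44 of 60 bases) shared 42 or more bases. Whether a probe also matches another P450 transcript was not tested, so each value is that of its probe.

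In the KO small intestine, 8 of the 73 tested P450 genes (11%) passed, 1 higher and 7 lower, where 9.5% of all genes tested passed (6.04% higher and 3.45% lower). Cyp7b1, the oxysterol hydroxylase of the alternative bile acid pathway, rose. Those that fell were Cyp2j6, Cyp2j8 and Cyp2j13, of a subfamily that makes epoxides of arachidonic acid, Cyp2c44, another arachidonic acid epoxygenase, Cyp2w1, a P450 known from the developing gut, Cyp4a12a, an omega-hydroxylase of arachidonic acid, and Cyp4f40. The groups did not overlap for 13 higher and 30 lower genes, against 26.3% higher and 33% lower among all genes. The median difference of the 73 genes was -0.28, against -0.11 over all genes.

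Cyp7b1 read 2798 and 3047 in KO small intestine against 1292 and 862 in WT small intestine, so that both KO arrays lay above both WT arrays. It rose by 1.47 ± 0.25 (2.77-fold, adjusted p = 0.0305). Cyp7b1 in the large intestine read 1253 and 1004 in KO against 1448 and 1463 in WT, a difference of -0.38 ± 0.25 that did not pass. Among the other genes of cholesterol and bile acid metabolism none passed: Cyp27a1, the sterol 27-hydroxylase, differed by 0.46 ± 0.23, Cyp39a1, another oxysterol hydroxylase, by 0.51 ± 0.26, and Cyp46a1, the cholesterol 24-hydroxylase of brain, by -0.10 ± 0.19. Cyp7a1 and Cyp8b1, the enzymes of the classic bile acid pathway, were well above background on 1 array and were not tested.

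Of 27 fatty acid and eicosanoid P450 genes, 20 were tested and 5 of them passed, all lower in KO small intestine, where 9.5% of all genes passed and 3.45% passed as lower. Their median was -0.68, and 10 of the 20 had KO arrays below both WT arrays, as did 33% of all genes. Cyp2j6 read 1907 and 1512 in KO against 4737 and 5859 in WT, and fell by 1.63 ± 0.34 (adjusted p = 0.0401). A further Cyp2j6 probe fell by 1.91 ± 0.28 in a fit of all probes (adjusted p = 0.0311), in which the printed probe stood just outside the threshold (adjusted p = 0.0504). Cyp2j8 read 1341 and 1134 in KO against 3185 and 3608 in WT, and fell by 1.46 ± 0.27 (adjusted p = 0.0345). Cyp2j13 read 396 and 311 in KO against 902 and 1104 in WT, and fell by 1.51 ± 0.30 (adjusted p = 0.0384). For each of the 3 genes every KO array thus lay below every WT array.

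The Cyp2j genes lie side by side at chr4:95712305-96294231 in mm9, and the other tested members there did not pass. Cyp2j7 differed by -0.34 ± 0.21 and Cyp2j9 by -0.44 ± 0.20. In the large intestine the shown probes of the 3 lowered genes differed by -0.09 to 0.06 with overlapping groups. Other probes of these genes read differently there: the further Cyp2j6 probe differed by -0.43 ± 0.28. One further Cyp2j13 probe read 6.1 and 5.4 in KO against 33.9 and 22.8 in WT large intestine, and another read 2.1 and 1.9 in KO against 86.8 and 53.2 in WT. Neither of these Cyp2j13 probes was well above background in KO large intestine, and neither passed (adjusted p = 0.109 and 0.144 over all probes). The KO effect in large minus small intestine was 1.42 ± 0.43 for Cyp2j13, 1.70 ± 0.48 for Cyp2j6 and 1.40 ± 0.38 for Cyp2j8, which did not pass (adjusted p = 0.104 to 0.117).

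Cyp4a12a read 78.8 and 52.8 in KO small intestine against 124 and 147 in WT small intestine, and fell by 1.06 ± 0.26 (adjusted p = 0.0498). The call sat at the threshold and did not hold in 15 of 19 alternative settings. Its neighbour Cyp4a12b read 88.9 and 52.1 in KO against 107.5 and 112 in WT, a difference of -0.69 ± 0.27 that did not pass. Cyp4f40, of the family of leukotriene and fatty acid omega-hydroxylases, read 4.1 and 13.9 in KO against 41.2 and 113 in WT. It fell by 3.18 ± 0.67 (adjusted p = 0.0402), and 1 of the 2 KO arrays was well above background. Its difference was -1.36 with normexp background correction and -1.99 in the authors' normalized values. In the large intestine Cyp4f40 read 240 and 332 in KO against 200.5 and 246 in WT, with overlapping groups. Of the remaining family 4 members, Cyp4b1, a fatty acid hydroxylase best known from lung, read 556 and 892 in KO small intestine against 321 and 349 in WT small intestine and differed by 1.07 ± 0.32 (adjusted p = 0.0730). Cyp4f14, which hydroxylates leukotriene B4, differed by 1.10 ± 0.59, Cyp4v3, a fatty acid hydroxylase, by 0.76 ± 0.43, and Cyp4a10, a PPAR-alpha target, by -0.66 ± 0.68, none passing. With 1 array left in a group, Cyp4b1 differed by 1.41 without KO small intestine replicate 2 and Cyp4v3 by 1.48 without WT small intestine replicate 2.

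**Figure D1:**
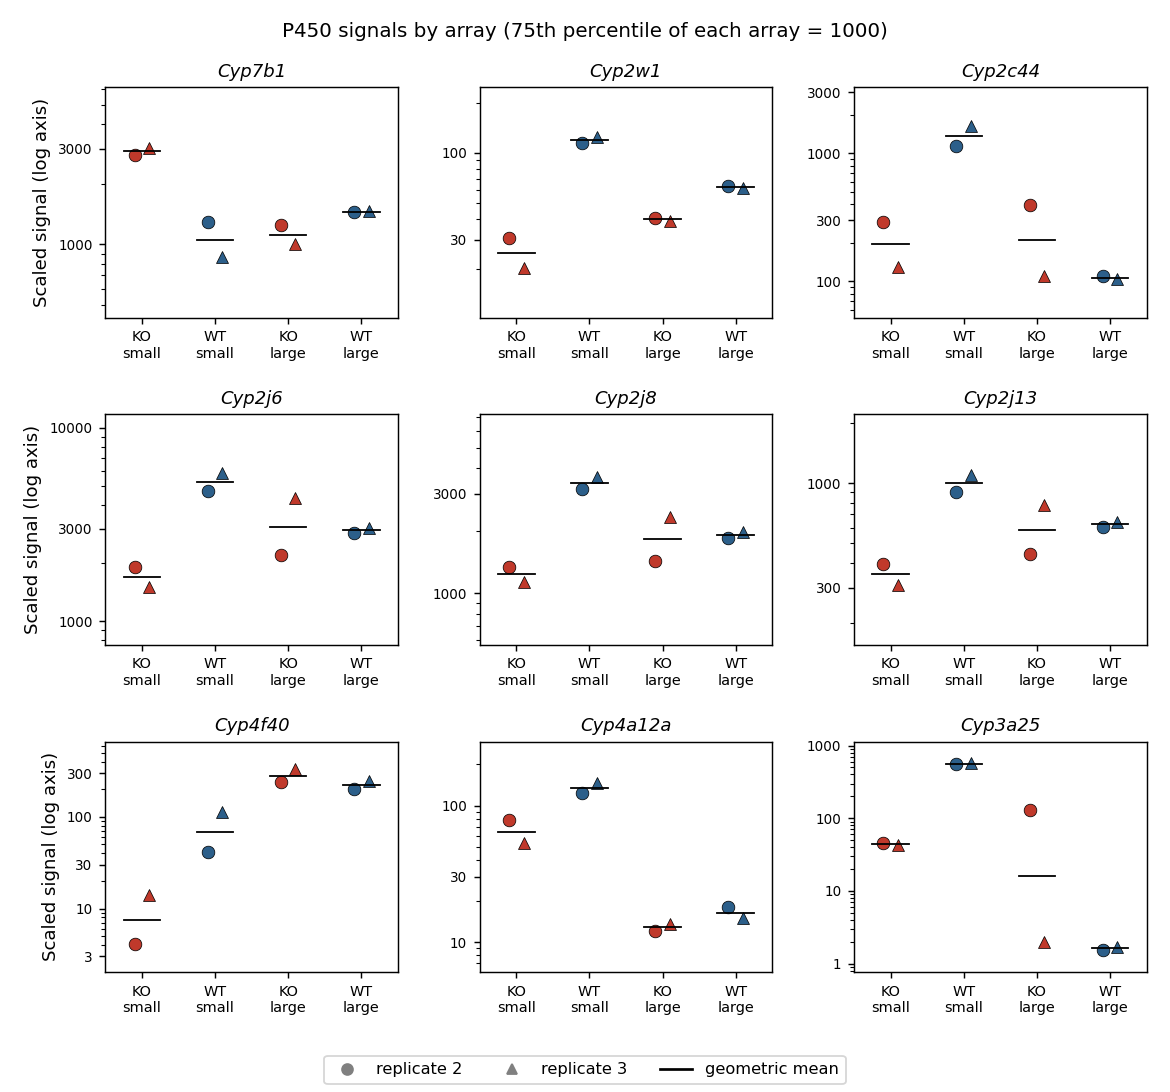
Scaled signal of the 8 P450 genes that passed in the small intestine, and of Cyp3a25, on a log axis, by group. Circles are replicate 2, triangles replicate 3 and lines the geometric mean of the 2 arrays; Cyp7b1 stands higher in KO than in WT small intestine and the others lower, and Cyp3a25 reads 130 on 1 KO large intestine array and 2.0 on the other.

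Of 50 xenobiotic and mixed genes (families 1 to 3 without Cyp2j and Cyp2r1), 40 were tested. In the small intestine 2 of them passed (5%), both lower, where 9.5% of all genes passed and 3.45% passed as lower. Cyp2w1 read 30.6 and 20.4 in KO against 114 and 123 in WT, and fell by 2.25 ± 0.23 (4.75-fold, adjusted p = 0.0119). Its large intestine signals were 40.7 and 38.9 in KO against 63.5 and 61.6 in WT, again without overlap, and they differed by -0.65 ± 0.23 (adjusted p = 0.329). Cyp2w1 held in 17 of 19 alternatives, more than the other 7 genes. Cyp2c44 (RefSeq symbol Cyp2c23) read 293 and 129 in KO small intestine against 1143 and 1641 in WT small intestine, and fell by 2.82 ± 0.64 (7.04-fold, adjusted p = 0.0454). Cyp2c44 in the large intestine read 397 and 110 in KO against 110 and 104 in WT, where 1 KO array stood above the other 3. That array was KO replicate 2, whose liver transcripts are described below.

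Wide gaps between the small intestine groups were also read from 3 Cyp3a genes that did not pass, named here after their values were seen. Cyp3a25 read 45.8 and 42.6 in KO small intestine against 561 and 568 in WT small intestine, a difference of -3.68 ± 1.66 (adjusted p = 0.185). Cyp3a57 read 27.8 and 24.8 in KO against 336 and 321 in WT, a difference of -3.64 ± 1.52 (adjusted p = 0.157). Cyp3a59 read 26.5 and 30.4 in KO against 200.5 and 200.4 in WT, a difference of -2.82 ± 1.80 (adjusted p = 0.330). The replicates of the small intestine lay close together. The error is estimated over all 4 groups, and KO large intestine replicates 2 and 3 read 130 and 2.0 for Cyp3a25, 79.6 and 1.8 for Cyp3a57, and 176 and 1.9 for Cyp3a59. Without KO large intestine replicate 2, or without replicate 3, the 3 genes passed, with errors of 0.20 to 0.21 (adjusted p = 0.00494, 0.00642 and 0.0109). Without replicate 2, 9 P450 genes passed in the small intestine, where 3.77% of all genes did; Cyp7b1, Cyp2w1, Cyp2c44 and the 3 Cyp2j genes were among them, and Cyp4f40 and Cyp4a12a were not.

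The 3 Cyp3a genes also shared features of the sequence before their starts. In windows of 300 bases around the start, most of them before it (RefSeq, GRCm38.p6), capitals mark AGGTCA, the hexamer bound by many nuclear receptors, and CAAAGT, part of the element bound by HNF4A, on either strand. The windows lie at chr5:146009569-146009868 (minus strand), chr5:145345019-145345318 (plus strand) and chr5:146079008-146079307 (plus strand).
Cyp3a25: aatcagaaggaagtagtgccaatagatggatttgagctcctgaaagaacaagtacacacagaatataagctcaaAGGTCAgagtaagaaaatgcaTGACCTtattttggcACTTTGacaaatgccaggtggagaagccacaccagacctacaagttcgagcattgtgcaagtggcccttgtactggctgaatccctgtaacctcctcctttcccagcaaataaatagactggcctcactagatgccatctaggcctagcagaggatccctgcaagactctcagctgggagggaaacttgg
Cyp3a57: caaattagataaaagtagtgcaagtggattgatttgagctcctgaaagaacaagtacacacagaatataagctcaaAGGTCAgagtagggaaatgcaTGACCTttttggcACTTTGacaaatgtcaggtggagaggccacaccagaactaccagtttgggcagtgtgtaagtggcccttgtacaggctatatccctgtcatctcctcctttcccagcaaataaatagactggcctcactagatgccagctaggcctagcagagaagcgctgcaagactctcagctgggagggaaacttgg
Cyp3a59: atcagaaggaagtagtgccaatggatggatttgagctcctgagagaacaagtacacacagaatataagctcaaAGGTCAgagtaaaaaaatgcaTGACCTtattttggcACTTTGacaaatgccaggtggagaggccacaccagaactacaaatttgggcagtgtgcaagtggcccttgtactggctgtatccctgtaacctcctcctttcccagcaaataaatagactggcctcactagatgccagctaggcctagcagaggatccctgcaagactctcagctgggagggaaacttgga
Each window held AGGTCA on both strands, the nearer copy at position -156 to -153 from the start, counted by its first base in the printed strand, and CAAAGT at -141 or -140, with no overlap between the strings.

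A promoter window was found for 70 of the 96 genes, 80 windows in all. AGGTCA stood in 21 of the 80 windows (26.25%), against 16.26% of 32851 windows of all genes, and CAAAGT in 34 of 80 (42.5%), against 14.35%. Both stood in 14 of 80 windows (17.5%), against 2.57% of all windows. Within the Cyp3a cluster, the windows of Cyp3a11 and Cyp3a44 also held both strings, and those of Cyp3a16 and Cyp3a41b held CAAAGT alone. Cyp3a11 differed by 0.32 ± 1.27 between KO and WT small intestine and did not pass. The window of Cyp3a13, a member that lies apart from this cluster, held neither. Of 4 further strings searched on both strands, GCGTG, the core bound by the aryl hydrocarbon receptor with ARNT, stood in 20% of the P450 windows and 32.39% of all windows. TATAAA stood in 37.5% and 13.62%, GTTAAT, part of the HNF1 element, in 10% and 7.10%, and TTTATG, bound by CDX factors, in 15% and 11.85%. Neighbouring P450 genes share sequence by descent, so the windows are not independent, and a match is only a string of letters.

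Within the Cyp2c cluster of chromosome 19, grouped here after values were seen, most tested members fell into sets with differences of opposite sign. Cyp2c38 and Cyp2c70 were in none of these sets. Cyp2c38 differed by -0.66 ± 0.30 in the small and 0.39 ± 0.30 in the large intestine. For Cyp2c70 the differences were -0.41 ± 0.95 and 0.84 ± 0.95, and neither gene passed in either segment. Cyp2c29, Cyp2c37, Cyp2c39, Cyp2c54, Cyp2c67 and Cyp2c68, drug and arachidonic acid oxidases of the liver in mice, were lower on both KO arrays than on both WT arrays in each segment, as were 33% of all genes in the small and 27.3% in the large intestine. In the small intestine their differences ran from -1.64 to -1.43 with standard errors of 0.41 to 0.51, and none passed (adjusted p = 0.0652 to 0.0942). Without KO small intestine replicate 2, which left 1 KO array, their differences ran from -2.34 to -1.90. That remaining array also differed from both WT arrays in sex-linked transcripts, given below. In the large intestine the differences of the 6 genes ran from -1.20 to -0.92 (adjusted p = 0.377 to 0.448). Cyp2c29 read 3903 and 1389 in KO against 5752 and 7366 in WT small intestine, and 2557 and 2705 in KO against 4443 and 5534 in WT large intestine. On KO small intestine replicate 2 the 6 probes read 1.81 to 3.05 times their signal on replicate 3. A further Cyp2c37 probe differed by only 0.05 ± 0.56 in the small intestine. In the large intestine it differed by 0.76 ± 0.56, reading 81.0 on KO replicate 2 and 22.4 on KO replicate 3 against 23.6 and 26.9 in WT.

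The neighbours Cyp2c55, Cyp2c65 and Cyp2c66 read higher in KO small intestine without overlap, by 0.78 to 1.06, and none passed (adjusted p = 0.104 to 0.275). Of all genes, 26.3% lay wholly higher in KO small intestine. Cyp2c55, which oxidises linoleic and arachidonic acid, read 142 and 124 in KO against 56.7 and 71.5 in WT. Cyp2c65 read 4003 and 2696 in KO against 2240 and 1608 in WT, a difference of 0.79 ± 0.40. For all 3 genes the large intestine groups overlapped. The Cyp2c cluster held 8 of 11 tested genes below 0 in the small intestine and 6 of 11 in the large intestine. Over all genes tested, 8775 of 20698 lay above 0 in the small intestine and 10384 of 20698 in the large intestine.

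Several other P450 genes showed large differences in the small intestine without passing. Cyp1b1, which oxidises steroids and polycyclic hydrocarbons, mostly in mesenchymal cells, read 1725 and 4198 in KO against 932 and 489 in WT, a difference of 2.00 ± 0.66 (adjusted p = 0.0929). Cyp3a13, the main intestinal Cyp3a enzyme of the mouse, read 41908 and 20124 in KO against 13534 and 12663 in WT, a difference of 1.15 ± 0.35 (adjusted p = 0.0788). Cyp3a13 passed under quantile normalization (adjusted p = 0.0448) and in the authors' normalized values (0.0341). Cyp2f2, which activates naphthalene and is best known from airway cells, read 227 and 16.3 in KO against 570 and 774 in WT, a difference of -3.45 ± 1.11 (adjusted p = 0.0883). Without KO small intestine replicate 2, which left 1 KO array, the Cyp2f2 difference was -5.3.

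Values for further members of known role completed the small intestine. Cyp1a1, the classic target of the aryl hydrocarbon receptor, read 67.8 and 32.01 in KO against 128 and 70.2 in WT, without overlap, a difference of -1.03 ± 0.56. Cyp2s1, an epithelial P450, differed by -0.52 ± 0.30, Cyp2u1, a long-chain fatty acid hydroxylase, by 0.10 ± 0.23, and Cyp20a1, whose substrate is unknown, by 0.57 ± 0.28. A second Cyp2u1 probe read 30.7 and 17.01 in KO against 70.2 and 142 in WT, a difference of -2.12 ± 0.45 (adjusted p = 0.0504 over all probes). Cyp26b1, which breaks down retinoic acid, differed by 0.52 ± 0.42, and Cyp26a1, of the same role, was not well above background in either small intestine group. The vitamin D hydroxylases Cyp27b1 and Cyp2r1 differed by -0.75 ± 0.45 and -0.42 ± 0.30, and a second Cyp2r1 probe by 0.51 ± 0.32. None of these passed, and Cyp24a1, which degrades vitamin D, was well above background on 0 arrays.

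Marker levels also differed between the small intestine groups, and their calls stand beside 6.04% of all genes that passed as higher and 3.45% as lower. The summed signal of 8 smooth muscle markers, all well above background, was 448535 and 550166 in KO against 290432 and 161033 in WT, and 1 of the 8 passed, higher. That of 10 gut epithelium markers was 730672 and 570869 in KO against 647535 and 682390 in WT, and 2 of the 10 passed, lower. Hepatocyte markers summed to 48349 and 44369 in KO against 110280 and 84848 in WT, with Alb at 7.0 and 3.0 in KO against 12.8 and 16.1 in WT. Those of 9 pancreatic acinar markers summed to 1349 and 965 in KO against 14998 and 19372 in WT. Of the 9, however, 6 differed upward in KO, with a median of 0.23 and a lowest value of -6.09, and 1 passed, higher. On each small intestine array 5 or 6 of the 9 were well above background. Summed T cell, macrophage and squamous markers overlapped between the genotypes, while 4 of 6 T cell markers passed, lower, and 2 of 4 macrophage markers, higher. Their part in the P450 differences was not tested.

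**Figure D2:**
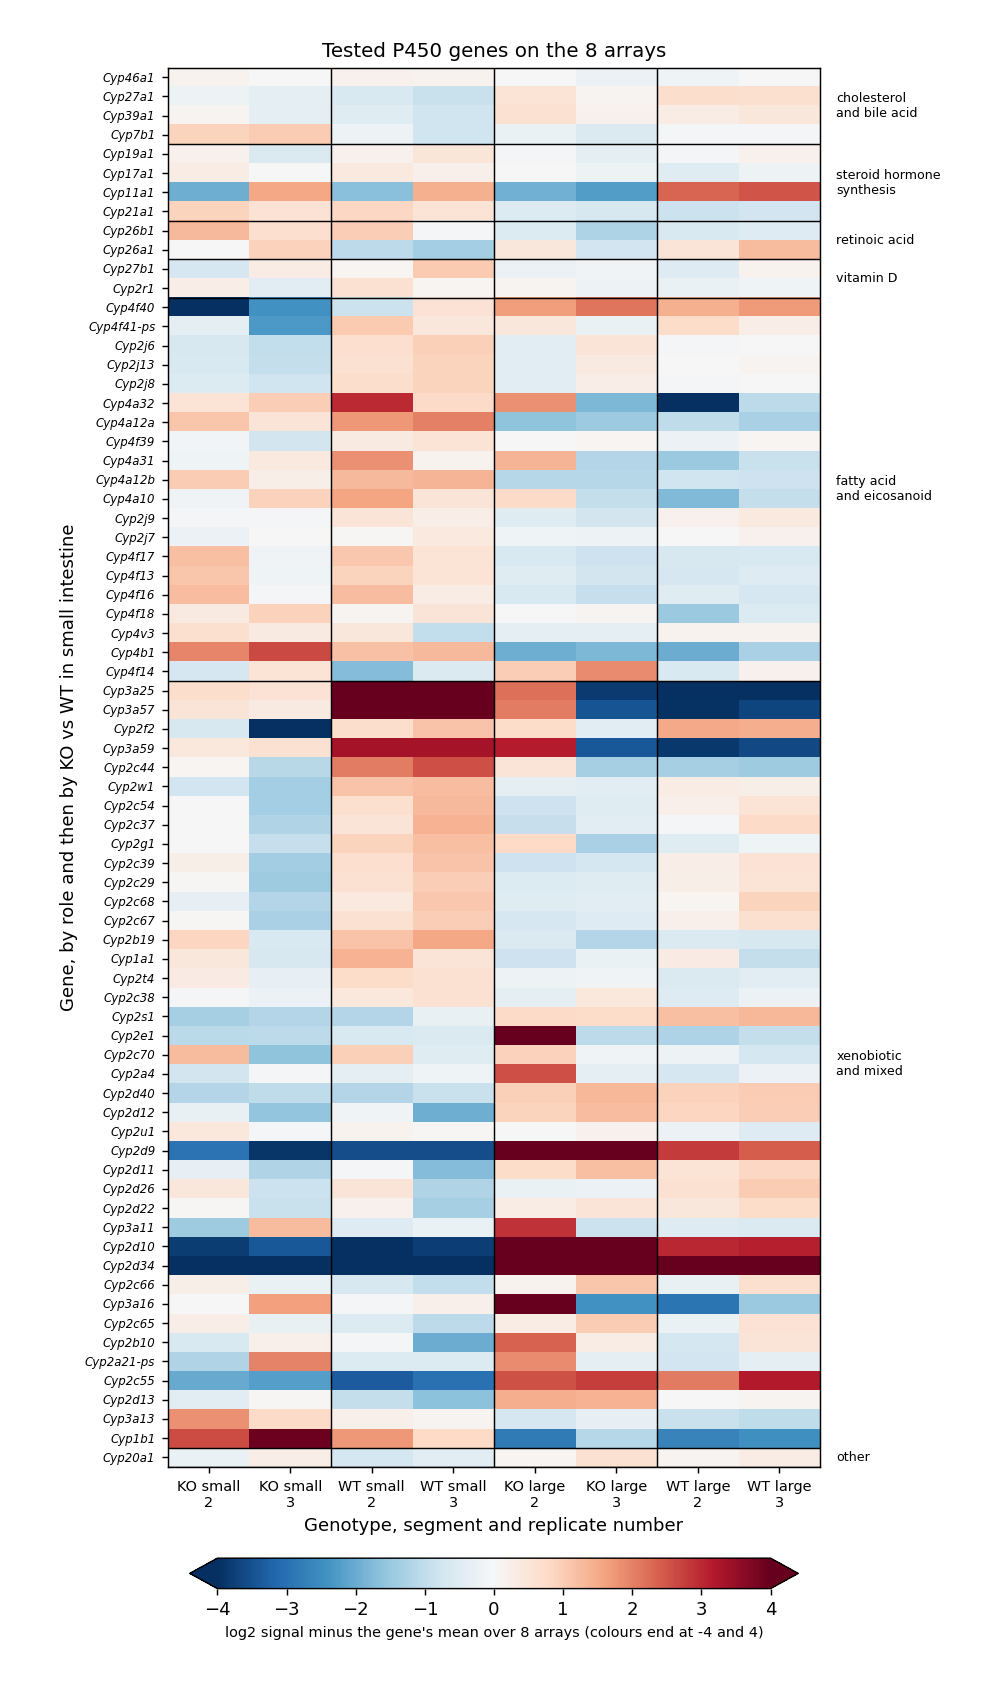
Log2 signal of the 73 tested P450 genes on each array, as the difference from the gene's mean over the 8 arrays, with rows grouped by role and ordered by the KO minus WT difference in small intestine. Cyp2d9, Cyp2d10, Cyp2d34 and Cyp2c55 stand high on the 4 large intestine arrays and Cyp3a25, Cyp3a57 and Cyp3a59 on the 2 WT small intestine arrays and on KO large intestine replicate 2, where Cyp2e1 and Cyp3a16 also stand high. The colours end at -4 and 4.

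The counts in the small intestine turned on single arrays, and a group with an array left out kept only 1. KO small intestine replicate 3 also differed from both WT small intestine arrays in sex-linked transcripts, given below. More P450 genes passed without KO small intestine replicate 2 or either KO large intestine array, and fewer without any other array. The shares of all genes passing in most of these fits were not set beside the counts. Whether such shifts are particular to P450 genes was therefore not tested. Over all alternatives, Cyp7b1 passed in 13 of 19, Cyp2j8 in 12, Cyp2j13 in 11, Cyp2c44 and Cyp2j6 in 10 each, and Cyp4f40 in 7 of 18.

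In the large intestine 0 of the 73 P450 genes passed in limma, where 0.304% of all genes did, and 10 had an unadjusted p under 0.05, as had 13.1% of all genes. Differences carried by both KO arrays included those of 5 genes of the Cyp2d cluster of chromosome 15, all but Cyp2d26 named after their values were seen. The enzymes of this cluster oxidise many basic drugs and, in mice, steroids. Cyp2d9, a steroid 16-alpha hydroxylase of male mouse liver, read 2757 and 3677 in KO against 1092 and 836 in WT, a difference of 1.74 ± 0.34 (adjusted p = 0.144). Cyp2d10 read 4929 and 5639 in KO against 1555 and 1656 in WT, a difference of 1.72 ± 0.34 (adjusted p = 0.145). Cyp2d10 passed with normexp background correction, in the authors' normalized values and with the compared groups alone (adjusted p = 0.0161, 0.0298 and 0.0479), and Cyp2d9 with normexp alone (0.0454). Cyp2d13 read 57.9 and 56.2 in KO against 21.7 and 22.9 in WT, a difference of 1.36 ± 0.29. Cyp2d34 read 24563 and 30069 in KO against 15785 and 16560 in WT, a difference of 0.75 ± 0.25. Their neighbour Cyp2d26 read 18568 and 19066 in KO against 34202 and 44842 in WT, a difference of -1.06 ± 0.63. The groups did not overlap for any of these 5 genes, where 27.6% of all genes lay wholly higher and 27.3% wholly lower in KO. For the other tested Cyp2d genes, Cyp2d11, Cyp2d12, Cyp2d22 and Cyp2d40, the groups overlapped, with differences of -0.19 to 0.28.

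Cyp11a1, the cholesterol side-chain cleavage enzyme that starts steroid synthesis, read 38.8 and 31.5 in KO large intestine against 745 and 839 in WT large intestine. The difference of -4.50 ± 1.29 did not pass (adjusted p = 0.250), and it passed with the compared groups alone (adjusted p = 0.0163). Its replicates differed in the small intestine, where it read 37.7 and 426 in KO against 45.7 and 391 in WT, low on both arrays numbered 2 and high on both numbered 3. Of the other adrenal cortex markers, Star read 22.5 and 20.6 in KO against 18.5 and 23.5 in WT large intestine, Nr5a1 116 and 117 in KO against 90.8 and 102 in WT, and Mc2r 32.6 and 29.3 in KO against 16.4 and 17.4 in WT. The later enzymes Cyp17a1 and Cyp21a1 differed by 0.23 ± 0.21 and 0.22 ± 0.21 in the large intestine, and Cyp11b1 was well above background on 1 array.

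The remaining members of known role did not pass in the large intestine. Cyp4f14 read 1488 and 2821 in KO against 497 and 854 in WT, a difference of 1.65 ± 0.59 without overlap (adjusted p = 0.324). Cyp26a1 read 10.5 and 4.5 in KO against 10.8 and 18.5 in WT, a difference of -1.03 ± 0.51, and 1 of the 2 KO arrays was well above background. Cyp1a1, Cyp1b1, Cyp2s1, Cyp2u1, Cyp4b1, Cyp4v3, Cyp20a1, Cyp26b1, Cyp27a1, Cyp27b1, Cyp2r1, Cyp39a1, Cyp46a1, Cyp2c65, Cyp2c55 and Cyp3a13 differed by -0.53 to 0.57. The second Cyp2r1 probe differed by -0.67 ± 0.32 there, where the first differed by 0.18 ± 0.30.

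KO large intestine replicate 2 stood apart through transcripts of the liver. The 14 hepatocyte markers summed to 273293 on this array and 26652 on the other KO array, against 24597 and 45957 in WT large intestine, and Alb read 37589 against 3.0 to 43.3 on the other 7 arrays. Cyp2e1, the ethanol-oxidising P450 of liver, read 5170 and 27.3 in KO against 23.6 and 28.9 in WT. Cyp3a11, the main drug-metabolising Cyp3a enzyme of adult mouse liver, read 485 and 36.3 in KO against 46.1 and 44.1 in WT. Cyp3a16, a Cyp3a gene of fetal and newborn liver, read 428 and 2.4 in KO against 1.7 and 4.7 in WT. In each case 1 KO array was high and the other lay within or beside the WT range.

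The same array carried most of the P450 probes that were detected nowhere else. Of 13 P450 probes well above background on exactly 1 array, 10 were so on KO large intestine replicate 2, among them those of Cyp7a1, Cyp8b1, Cyp1a2, Cyp2a12, Cyp3a41b and Cyp3a44. This count was not made over all probes, so it has no share to stand beside. Of 100 P450 probes well above background on this array, 18 (18.0%) read at least 2-fold above the highest of the other 7 arrays, against 271 of 38702 non-control probes (0.700%). Those 18 probes belong to 16 genes. Cyp4a14, a PPAR-alpha target of liver, read 2529 there and 5.7 to 9.8 elsewhere, and did not enter the test because no group had it above background on both arrays. Cyp2a4, a steroid hydroxylase, read 115 there and 11.5 to 18.3 elsewhere, and Cyp2b10, the classic target of CAR, 43.7 there and 2.1 to 12.1 elsewhere. Without KO large intestine replicate 3, the KO group kept only this array. The large intestine differences were then 7.63 for Cyp2e1, 7.23 for Cyp3a16, 6.33 for Cyp3a25, 5.84 for Cyp3a57 and 6.88 for Cyp3a59.

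**Figure D3:**
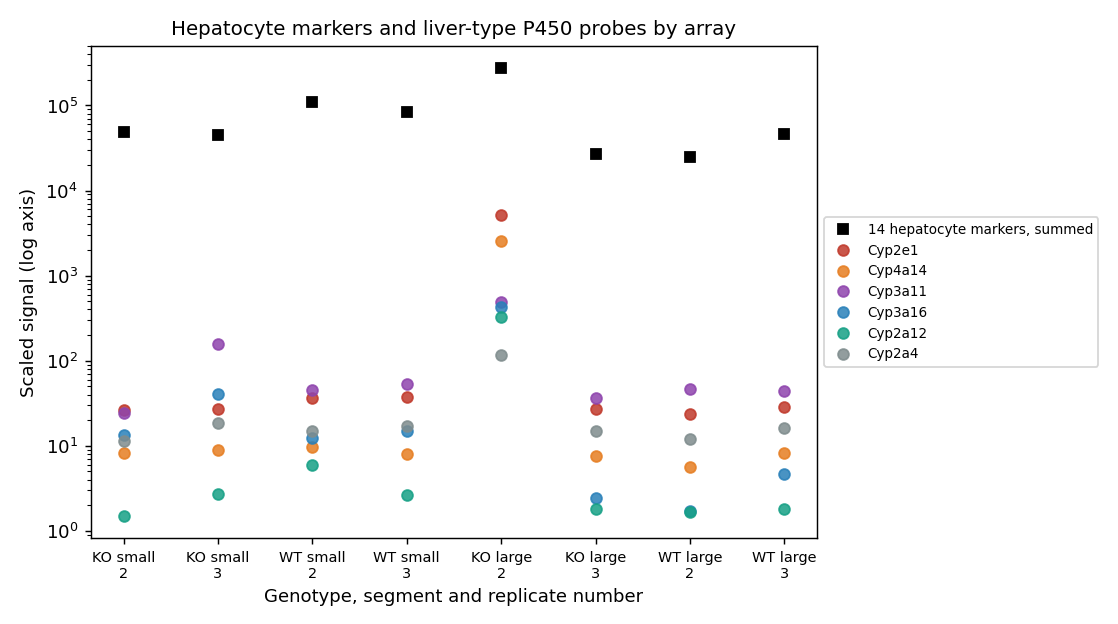
Scaled signal of 6 P450 probes and the sum of 14 hepatocyte markers on each array, on a log axis. All 7 are highest on KO large intestine replicate 2, where Cyp2e1 reads 5170 and the marker sum 273293.

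Sex-linked transcripts also differed between arrays. Xist, the RNA that silences an X chromosome in females, read 187 and 185 on KO replicate 3 of either segment, with 5.7 to 13.1 on the remaining 6 arrays, and the Y-linked Ddx3y read 2.0 to 2.8 on those 2 arrays and 1627 to 2522 on the others. Each KO group thus held 1 array of either pattern and each WT group 1 pattern only, and the part of sex in the P450 differences was not tested.

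Over both segments together, 0 of 73 P450 genes passed in limma (0.488% of all genes) and 23 had an unadjusted p under 0.05 (15.1% of all genes), with n = 4 arrays per genotype. The lowest adjusted p was 0.0574, for Cyp2d13, which read higher in KO by 1.22. The KO effect in large minus small intestine passed for 0 of 73 genes, where 0.15% of all genes passed, and 18 had an unadjusted p under 0.05, as had 25.7% of all genes. Its lowest adjusted p was 0.1004, for Cyp7b1 (-1.84 ± 0.35), Cyp2w1 (1.59 ± 0.33) and Cyp2c44 (3.79 ± 0.90). A different KO effect in the 2 segments was therefore not shown for any P450 gene. Without KO large intestine replicate 2 the difference between segments passed for Cyp3a25 (3.98 ± 0.31, adjusted p = 0.0419) and Cyp3a57 (3.99 ± 0.34, adjusted p = 0.0435), where 0.0628% of all genes passed. In both large intestine groups of that fit these 2 genes were not well above background on any array.

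**Figure D4:**
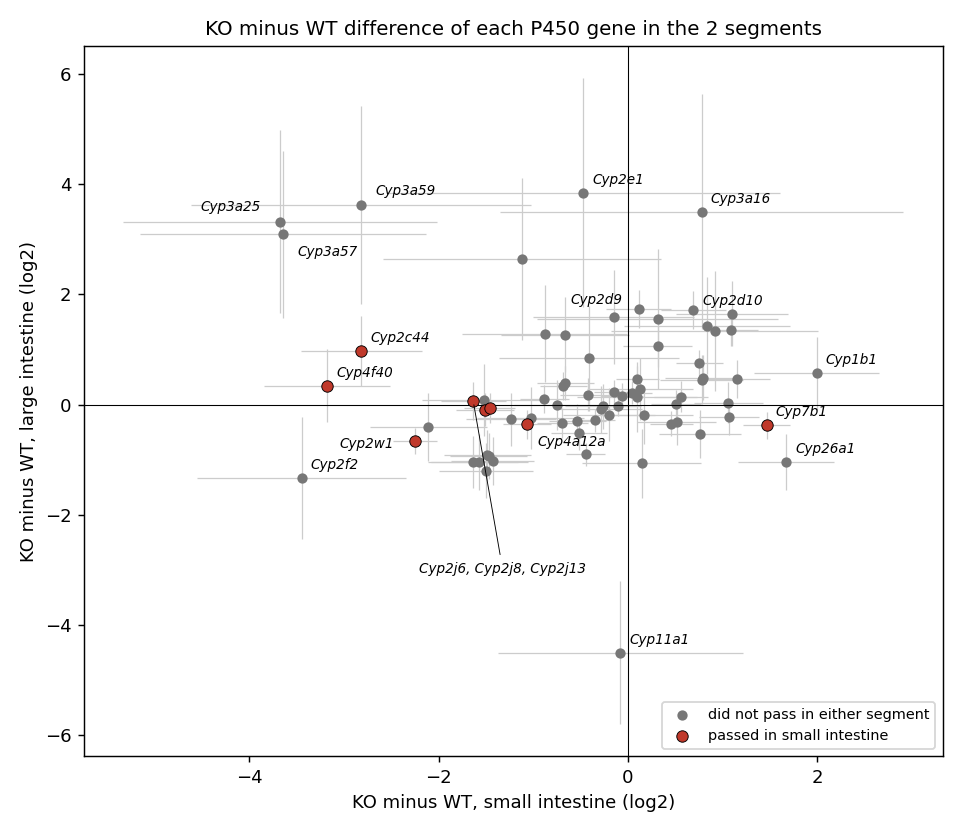
KO minus WT difference of each tested P450 gene in the small intestine (horizontal) and the large intestine (vertical), on the log2 scale with standard errors. Red points passed in the small intestine; Cyp2e1, Cyp3a16, Cyp3a25, Cyp3a57 and Cyp3a59 lie high on the vertical axis, where 1 of 2 KO arrays carried liver transcripts, and Cyp11a1 lies at -4.50.

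In WT pups the segments differed in 23 of 73 P450 genes (31.5%), where 19.7% of all genes passed. Of the 23, 10 were higher and 13 lower in the large intestine, against 9.73% and 9.98% of all genes. All 9 tested Cyp2d genes read higher in the large intestine, and 5 of them passed.

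Cyp2d34 read 15785 and 16560 in WT large intestine against 15.2 and 20.2 in WT small intestine, and rose by 9.85 ± 0.25 (923-fold, adjusted p = 2.6e-05). Cyp2d10 read 1555 and 1656 in large against 7.0 and 13.9 in small intestine, where 1 of 2 arrays was well above background, and rose by 7.34 ± 0.34 (adjusted p = 0.000126). Cyp2d9 read 1092 and 836 in large against 13.3 and 13.3 in small intestine, and rose by 6.16 ± 0.34 (adjusted p = 0.000225). Outside that cluster, Cyp2c55 read 2398 and 5136 in large against 56.7 and 71.5 in small intestine, and rose by 5.78 ± 0.37 (55.1-fold, adjusted p = 0.000382). These 4 genes passed in every alternative in which they were tested.

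Smaller rises were of 4.02-fold for Cyp2d40, of 3.99-fold for Cyp2s1 and of 2.68-fold for Cyp27a1. Cyp2d13 rose by 1.35 ± 0.29 and Cyp39a1 by 1.03 ± 0.26. Cyp26a1 read 10.8 and 18.5 in large against 3.7 and 3.0 in small intestine, where it was not well above background, and stood at least 1.75-fold higher in large intestine (adjusted p = 0.0338). A bound of this kind sets the mean of the measured group against the lowest detectable signal of the other group's arrays, or the probe's own signal where that is higher.

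Cyp3a25 was not well above background in WT large intestine, where it read 1.5 and 1.7, against 561 and 568 in WT small intestine. It was at least 81.9-fold lower in the large intestine (adjusted p = 0.0180), Cyp3a57 at least 47.6-fold (0.0168) and Cyp3a59 at least 29.1-fold (0.0388). The wild-type small intestine was thus the group with the highest reading of these genes, and their KO small intestine readings lay between the WT groups. Cyp1b1 read 44.4 and 51.3 in large against 932 and 489 in small intestine, and fell by 3.82 ± 0.66 (adjusted p = 0.0118). Cyp2c44 read 110 and 104 in large against 1143 and 1641 in small intestine, and fell by 3.68 ± 0.64 (adjusted p = 0.0122). Cyp4a12a fell by 3.04 ± 0.26 (adjusted p = 0.00108), Cyp4b1 by 2.87 ± 0.32 (0.00262) and Cyp4a12b by 2.13 ± 0.27 (0.00417). Cyp21a1, Cyp4f18, Cyp2t4 and Cyp2w1 fell by 0.92 to 1.49. Cyp2b19, not well above background in WT large intestine, was at least 1.59-fold lower there (adjusted p = 0.0345).

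**Figure D5:**
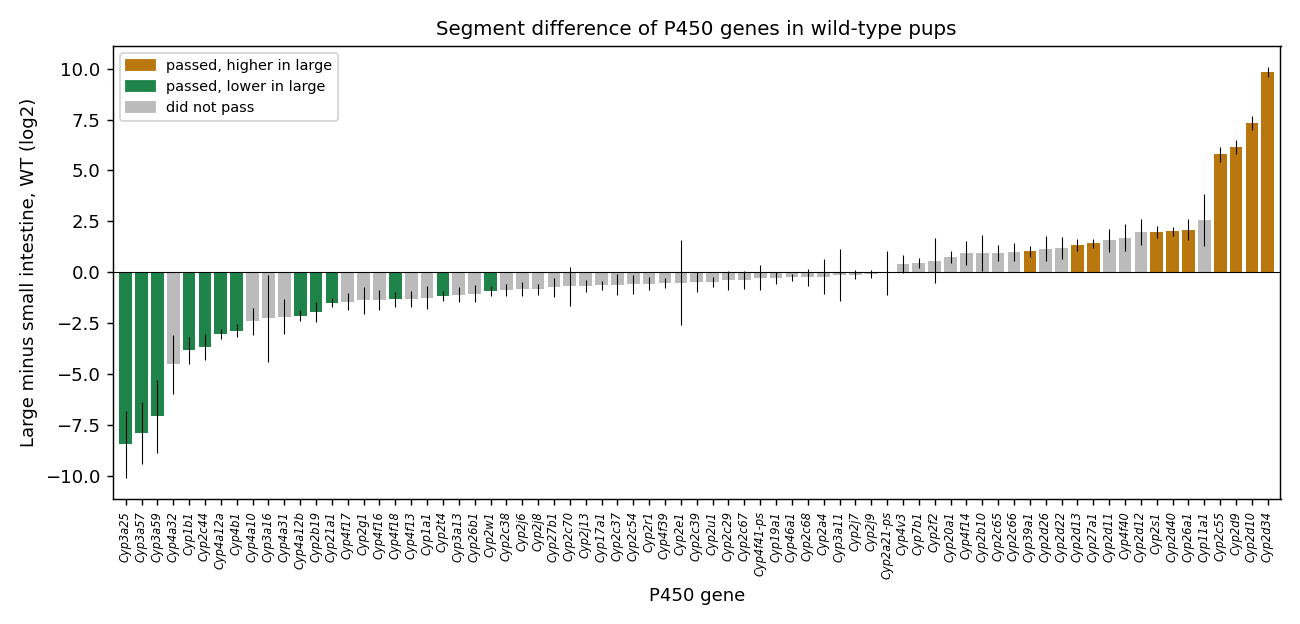
Large minus small intestine difference of each tested P450 gene in WT pups, on the log2 scale with standard errors, ordered by size. Coloured bars passed, 10 higher and 13 lower in large intestine; for Cyp3a25, Cyp3a57, Cyp3a59 and Cyp2b19 in large and Cyp26a1 in small intestine the fitted value rests on arrays that were not well above background.

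The comparison of genotypes in the small intestine and that of segments in WT share the WT small intestine arrays, so their values are only set side by side. Cyp2c44 differed by -2.82 between KO and WT small intestine and by -3.68 between large and small intestine of WT. For Cyp2w1 the values were -2.25 and -0.92, for Cyp4a12a -1.06 and -3.04, and for Cyp3a25 -3.68 and -8.45, the last of which rests on arrays not well above background. Cyp7b1 differed by 1.47 and 0.46, and Cyp2j6 by -1.63 and -0.84.

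Arrays of the same group also differed in parts of the family. Cyp4f13, Cyp4f16 and Cyp4f17 read 2.40 to 2.53 times as high on replicate 2 as on replicate 3 of KO small intestine and 1.28 to 1.91 times in WT small intestine. For Cyp2d11, Cyp2d12, Cyp2d22 and Cyp2d26 the ratios were 1.84 to 2.52 in KO and 2.82 to 3.49 in WT small intestine, and 0.73 to 0.97 in KO and 0.76 to 0.92 in WT large intestine. None of these 7 genes passed between genotypes or between segments of WT.

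The genes that serve P450 enzymes were read from lists drawn up for this purpose. Of 18 nuclear receptors and other regulators, 5 passed in the small intestine, all lower in KO (3.45% of all genes), with a list median of -1.11 against -0.11 over all genes. Nr5a2 (LRH-1), which drives bile acid and intestinal steroid synthesis, read 1155 and 625 in KO against 4187 and 5429 in WT, and fell by 2.49 ± 0.33 (adjusted p = 0.0217). Nr1h4, the bile acid receptor FXR, read 6574 and 4986 in KO against 23494 and 32303 in WT, and fell by 2.27 ± 0.54 (adjusted p = 0.0488). Vdr, the vitamin D receptor, fell by 1.74 ± 0.31, and Rxra, the shared partner of Nr1h4 and Vdr, by 1.31 ± 0.25. Nqo1, a target of the aryl hydrocarbon receptor, fell by 1.11 ± 0.22. Nr1i2 (PXR) differed by -1.11 ± 0.46, Nr1i3 (CAR) by -0.95 ± 0.43, Hnf4a by -0.81 ± 0.39 and Ahr by 0.15 ± 0.27, none passing. None of the 18 passed in the large intestine, with a median of -0.10.

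Of 17 electron donors and haem synthesis enzymes, 1 passed in the small intestine, where 9.5% of all genes did: Cpox, of haem synthesis, fell by 1.39 ± 0.34 (adjusted p = 0.0499). Por read 64600 and 43138 in KO against 37708 and 32899 in WT, and its difference of 0.58 ± 0.25 did not pass. Of 9 steroid partners, Hsd11b1, which reactivates glucocorticoids, rose by 3.02 ± 0.41 (adjusted p = 0.0233), and Nr5a2 and Hsd3b1 fell. Hsd3b1, which converts pregnenolone to progesterone, read 3.8 and 4.0 in KO, not well above background, against 32.3 and 125 in WT, and was at least 6.64-fold lower (adjusted p = 0.0274). Of the 3 P450 genes with other names, Ptgis, the prostacyclin synthase, read 3985 and 6725 in KO against 1772 and 881 in WT small intestine, and rose by 2.05 ± 0.42 (adjusted p = 0.0398). Cyp51, of cholesterol synthesis, and Tbxas1, the thromboxane synthase, did not pass. In the large intestine 0 of 17, 0 of 9 and 0 of 3 passed, where 0.304% of all genes did.

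The 23 P450 genes that did not reach the test were Cyp11b1, Cyp11b2, Cyp1a2, Cyp24a1, Cyp26c1, Cyp2a12, Cyp2a22, Cyp2ab1, Cyp2b13, Cyp2b23, Cyp2b9, Cyp2c50, Cyp2j11, Cyp2j5, Cyp3a41b, Cyp3a44, Cyp4a14, Cyp4a29, Cyp4a30b, Cyp4f15, Cyp4x1, Cyp7a1 and Cyp8b1. Their probes were well above background on at most 4 of the 8 arrays. Of the 73 tested genes, 13 had several probes above background, and these agreed in direction for 9 genes in the small intestine and 8 in the large intestine.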

How the data were processed

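Total RNA of 8 intestinal fragments was read on Agilent 1-colour arrays labelled with Cy3. The deposited scanner files hold a background-subtracted spot intensity for each probe, made with Agilent Feature Extraction 10.7.3.1 and annotated to mouse build mm9, per the file headers. The deposited value table holds the authors' own normalized intensity of the same arrays on a linear scale, with its normalization not given in the sources used here, and R 3.3.0 is named in the submitters' processing notes. Its array medians were 158.06 to 160.06, it correlated with each array's own scanner values at 0.9912 or more, and it served as an alternative.

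The log2 intensity was taken from the deposited processed signal, minus each array's 75th percentile (2642.5 to 3571.8 signal units). Outlier-flagged probes (302) were dropped, and 38716 probes were kept that both arrays of 1 or more groups read well above background. Each gene was represented by its probe of highest mean. Probes were named by accession (26056), current symbol (3200), older symbol (823) or the name in the file (3945), and 21657 had no gene name. limma 3.58.1 under R 4.3.3, with version 1.17.8 of data.table, fitted 1 mean per group over the 8 arrays (4 residual degrees of freedom), or genotype plus segment over both segments (5 degrees of freedom), with Benjamini-Hochberg adjustment over 20698 genes at a threshold of 0.05. All adjusted p-values in the text are from limma. The fit was tested on simulated data.

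The members and lists were chosen with earlier results of these data known. Named with values are the genes past the threshold with the largest change in each comparison and a set of landmark members of known role. The Cyp2c and Cyp2d cluster members, Cyp2f2, Cyp3a25, Cyp3a57, Cyp3a59 and the other genes outside that rule were chosen after their values were seen. Alternatives were another background correction, normalization, source of values, filter, treatment of flags and probes, prior, replicate block, choice of arrays and fold threshold, and leaving out each array.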

Additional observations from a re-analysis of the deposited data

How the results depend on the processing

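No call of the 73 tested P450 genes reversed under any alternative. Against 8 genes in the small intestine, 1 passed with no background filter, 4 with every probe tested on its own and 2 with the compared groups alone, where leaving out single arrays gave 0 to 21. Against 0 in the large intestine, 2 passed with normexp background correction, 1 in the authors' normalized values and 2 with the compared groups alone, and single arrays left out gave 0 to 5. Over both segments 1 passed under quantile normalization, and 0 to 1 with an array left out. For the KO effect in large minus small intestine, arrays left out gave 0 to 4 (3 without KO small intestine replicate 2, and 2 and 4 without KO large intestine replicate 2 and 3). Against 23 between the WT segments, arrays left out gave 8 to 26 (8 and 9 without WT large intestine replicate 2 and 3, and 11 without WT small intestine replicate 3). A group left with 1 array was assumed to vary like the others. Same-numbered arrays deviated together at correlations of 0.0179 to 0.262, and with only the numbers 2 and 3 the samples share a number and a slide row. With the replicate block 6 genes passed in the small intestine, without Cyp2c44 (adjusted p = 0.0525), Cyp2j6 (0.0512), Cyp2j13 (0.0506) and Cyp4a12a (0.0622) and with Cyp4f14 (0.0451) and Cyp4f41-ps (0.0457), 0 in the large intestine, over both segments and between segments, and 27 between the WT segments, without Cyp26a1 (0.0527) and with Cyp4f14, Cyp4f16, Cyp4f17, Cyp4f40 and Cyp20a1 (0.0302 to 0.0447). The cause of these shifts was not tested, beyond the larger number of features tested with no filter (26336) and by probe (38716). For most of these settings the share of all features passing was not set beside the count. The counts therefore do not show whether the shifts are particular to P450 genes or shared by all features. Values near background limit Cyp4f40, Cyp26a1 and the Cyp3a genes.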
